A study of Arabidopsis lyrata and Arabidopsis thaliana with 9 samples.

Results

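The 8 genes described here make or oxidise the volatile terpenes of Arabidopsis thaliana flowers. They were chosen by locus, as the terpene synthases TPS10 (AT2G24210), TPS11 (AT5G44630), TPS14 (AT1G61680), TPS21 (AT5G23960) and TPS24 (AT3G25810) and the cytochrome P450 genes CYP76C1 (AT2G45560), CYP76C3 (AT2G45580) and CYP71B31 (AT3G53300). All 8 are among the 27176 gene models counted in A. thaliana, 7 had counts in every library, and CYP71B31 had none. Values came from 3 directional RNA-seq libraries of inflorescences of wild-type Col-0 plants after bolting, grown in a greenhouse in long days. The labels call the libraries biological replicates and do not say whether each held 1 plant or several. The series also has 6 libraries of wild-type A. lyrata, 3 of leaves and 3 of inflorescences, from plants kept at 18 °C in long days, whose genes are numbered in another system and were not used here.

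Flowers make terpenes from isopentenyl diphosphate and its isomer, which come from the MEP pathway of the plastid and the mevalonate pathway of the cytosol. Prenyltransferases join these units into geranyl and farnesyl diphosphate, and terpene synthases turn the former into monoterpenes such as linalool and the latter into sesquiterpenes such as caryophyllene. Cytochrome P450 enzymes then oxidise part of the product, and in A. thaliana flowers much of the linalool made is oxidised rather than released. The volatiles and their oxides act in the attraction of pollinators and in the defence of floral organs against herbivores and microbes.

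The libraries held 6263918, 14004158 and 6330211 counts. Levels are CPM, counts scaled to equal library totals, and CPM per kilobase of exon where genes are compared with each other. Of the 8 terpene genes, 7 had a mean of 1 CPM or more, as did 68.6% of all models, and 3 had 10 CPM or more, as did 48.4%. All 7 floral organ identity genes checked, among them SEP3 and AP1, reached 10 CPM. Of 5 root genes, the root hair genes EXPA7, RHD6 and RSL4 had no counts and COBL9 was the highest at 6.09 ± 0.632 CPM (SD, n = 3). For p-values, the spread measured is that between these 3 libraries.

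Terpene synthases carry an aspartate-rich motif whose acidic side chains hold the metal ions that bind the diphosphate of the substrate. A search of the counted coding sequences found it in TPS10, TPS11, TPS14 and TPS21. Its codons are shown because they mark each gene as a synthase of this class and show how far the genes differ at a site of shared function. The sequences are from the TAIR10.1 reference, with the 5 codons of the motif in capitals and 12 bases on either side.
TPS10 (codon 339 of 591, chr2:10295970-10296008, plus strand): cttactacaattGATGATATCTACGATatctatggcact
TPS14 (codon 331 of 569, chr1:22773403-22773441, minus strand): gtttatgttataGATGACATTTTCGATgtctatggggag
TPS11 (codon 310 of 557, chr5:18004495-18004533, plus strand): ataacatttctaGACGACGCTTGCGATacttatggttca
TPS21 (codon 299 of 547, chr5:8094117-8094155, plus strand): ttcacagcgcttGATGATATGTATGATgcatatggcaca
In TPS11 the search pattern occurred a second time, at codon 454 across an exon junction, and the occurrence shown lies inside 1 exon. TPS10 and TPS24 were the closest pair among the 5 synthases, with 74.0% identity over aligned coding bases. The other pairs had 61.1% to 64.2%.

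The P450 genes carry a motif around the cysteine that holds the haem iron, the reaction centre of the enzyme. It was found once in each of the 3, and its 10 codons are in capitals below.
CYP76C1 (codon 443 of 512, chr2:18776562-18776615, minus strand): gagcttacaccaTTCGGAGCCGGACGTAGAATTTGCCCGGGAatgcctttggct
CYP76C3 (codon 444 of 515, chr2:18782565-18782618, minus strand): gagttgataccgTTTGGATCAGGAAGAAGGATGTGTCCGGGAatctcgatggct
CYP71B31 (codon 434 of 498, chr3:19762025-19762078, plus strand): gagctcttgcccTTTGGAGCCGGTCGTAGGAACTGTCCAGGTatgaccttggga
CYP76C1 and CYP76C3, members of 1 subfamily, had 69.4% identity over aligned coding bases. CYP71B31, of another family, had 61.0% with CYP76C1 and 64.2% with CYP76C3.

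The linalool branch was led by TPS14 and CYP76C1. TPS14, the (S)-linalool synthase, stood at 33.05, 30.9 and 12.95 CPM in libraries 1, 2 and 3, from 207, 433 and 82 counts, with a mean of 25.6 ± 11.04 CPM (SD, n = 3). Libraries 1 and 2 were close, and library 3 was below both. TPS14 (chr1:22772315-22774720, minus strand, 7 exons) overlaps AT1G61670 on the opposite strand by 112 bases. Whether the counting used strand is not given in the sources used here, so part of its count is uncertain. The counted model is marked partial and its length covers coding bases only.

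TPS10, the (R)-linalool synthase, lies at chr2:10294286-10297597 on the plus strand with 7 exons. It stood at 11.8, 13.2 and 4.11 CPM in libraries 1, 2 and 3, from 74, 185 and 26 counts, with a mean of 9.71 ± 4.90 CPM. Library 3 was again below both others, and the 95% counting interval of library 3 (2.68 to 6.02 CPM) ended below those of libraries 1 (from 9.28 CPM) and 2 (from 11.4 CPM). Intervals and floors here cover counting error only. Over the 3 libraries TPS14 had 3.30, 2.76 and 3.72 times the level of TPS10 per kilobase, so the pair kept their order in each.

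CYP76C1, which oxidises linalool in flowers in successive steps, was the most even of the 7 genes with counts. It stood at 23.1, 26.3 and 23.2 CPM in libraries 1, 2 and 3, from 145, 369 and 147 counts, with a mean of 24.2 ± 1.83 CPM. No library was set apart, and the counting intervals of all 3 overlapped. CYP76C3, another floral linalool oxidase, stood at 7.18, 9.64 and 0.474 CPM, from 45, 135 and 3 counts, with a mean of 5.77 ± 4.74 CPM. It was nearly absent from library 3. The mean was 3.83 CPM without library 2. CYP71B31, which is also known to oxidise linalool, had 0 counts among 26598287, which allows a level of up to 0.113 CPM over the 3 libraries. CYP76C1 (chr2:18776015-18778676, 3 exons) and CYP76C3 (chr2:18782231-18784530, 4 exons) lie on the minus strand, and CYP71B31 (chr3:19760475-19762357, 2 exons) on the plus strand.

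The sesquiterpene branch was led by TPS11, which makes a mixture of sesquiterpenes and which the annotation places in intrafloral nectaries. It lies at chr5:18002996-18005849 on the plus strand with 7 exons. TPS11 stood at 73.3, 69.3 and 49.3 CPM in libraries 1, 2 and 3, from 459, 970 and 312 counts, with a mean of 63.9 ± 12.8 CPM. It was the most abundant of the 8, per kilobase as well. TPS21, the caryophyllene synthase of the stigma, stood at 4.95, 5.50 and 1.58 CPM, from 31, 77 and 10 counts, with a mean of 4.01 ± 2.12 CPM. Both genes were lowest in library 3. TPS21 (chr5:8092901-8095341, plus strand, 7 exons) held 1.58 CPM there with a counting interval of 0.758 to 2.91 CPM, below that of library 1, from 3.36 CPM.

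TPS24, a monoterpene synthase, differed from the other synthases in the library that held its RNA. It stood at 7.66 CPM in library 1, 0.643 in library 2 and 0.158 in library 3, from 48, 9 and 1 counts. Library 1 alone set its mean of 2.82 CPM, which was 0.4003 CPM without that library. TPS24 lies at chr3:9430762-9434000 on the plus strand with 7 exons.

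**Figure D1:**
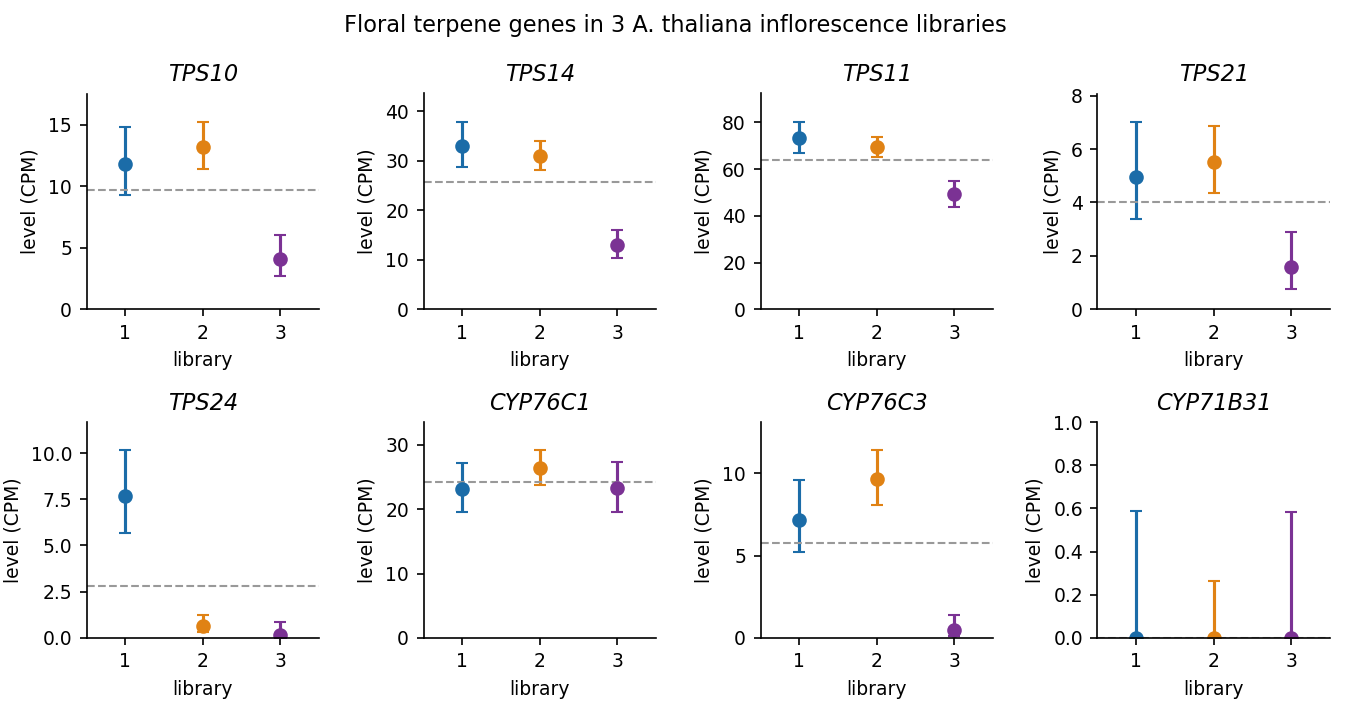
Level of each of the 8 genes in CPM (vertical axes from 0, each gene on its own scale) in A. thaliana inflorescence libraries 1, 2 and 3. Points are the values, bars the 95% exact Poisson counting intervals and the dashed line the mean; TPS10, TPS14, TPS21 and CYP76C3 are low in library 3, TPS24 is high in library 1 alone, CYP76C1 is even and CYP71B31 is at 0.

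Per kilobase of exon the order was TPS11 at 29.2 ± 5.86, TPS14 at 14.99 ± 6.45, CYP76C1 at 10.8 ± 0.817, TPS10 at 4.82 ± 2.43, CYP76C3 at 2.96 ± 2.43, TPS21 at 2.08 ± 1.10 and TPS24 at 1.41 ± 2.10 CPM per kilobase, and CYP71B31 was at 0. The order by CPM was the same. The length of TPS14 covers its 1710 coding bases only, while the 2237 bases of CYP76C1 include 1539 coding bases. The order of these 2 genes per kilobase is thus uncertain. Only 2 pairs of neighbours in it were separated in every library with ranges that did not overlap, TPS11 from TPS14 with a ratio of mean levels of 1.95, and CYP76C1 from TPS10 with a ratio of 2.25. TPS10 was above CYP76C3 in all 3 libraries, but their ranges overlapped. The neighbours TPS14 and CYP76C1, CYP76C3 and TPS21, and TPS21 and TPS24 changed places in 1 library each, with ratios of mean levels of 1.38, 1.42 and 1.47. With 3 libraries, an exact paired permutation test cannot give a two-sided p below 0.25, so neighbours were not tested.

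**Figure D2:**
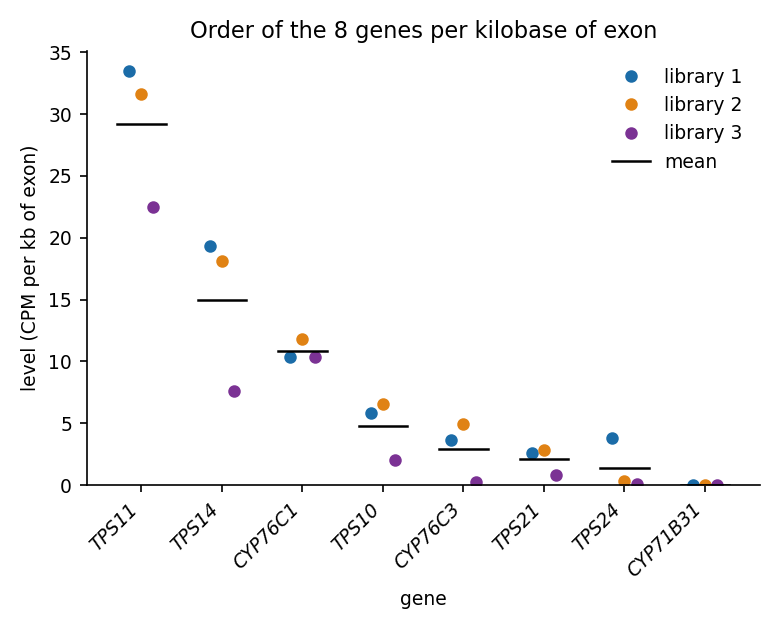
Level in CPM per kilobase of exon (vertical axis from 0) of the 8 genes in order of their mean, with 1 point per library and a bar at the mean. The points of TPS11 lie above all points of TPS14, while those of TPS14 and CYP76C1 overlap.

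Most of the terpene genes were lower in library 3 than in the other libraries, and CYP76C1 was not. In bulk RNA of this kind, fewer cells of a type and less RNA per cell cannot be told apart. Among the 7 genes with a mean of 1 CPM or more, 4 (TPS10, TPS14, TPS21 and CYP76C3) were lower in library 3 by 2-fold or more than in both others, as ratios of CPM plus 0.5. The background was 284 of 18654 models, or 1.52%. In library 1 against library 3, 5 of the 7 were higher by 2-fold or more, with TPS24 added to these 4, against 2.29% of models. In library 2 against library 3, 4 of the 7 were, against 1.99%. None of the 7 was lower by 2-fold or more in library 1 or in library 2 than in library 3, as 0.466% and 0.188% of models were. Between libraries 1 and 2 only TPS24 differed by 2-fold or more, higher in library 1, as 0.381% of models were, while 0.456% were lower. TPS24 reached the mean of 1 CPM only through library 1, so its place among the genes higher there (0.214% of models were higher in library 1 than in both others) was fixed by the filter and is a description. CYP76C3, at 0.474 CPM in library 3, reached that mean through libraries 1 and 2. Its place among the 4 genes low in library 3 is thus tied to the filter and is a description as well.

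The sizes of these differences varied within the group. CYP76C3 had 15.2 times the CPM of library 3 in library 1 (95% counting interval 4.87 to 76.3) and 20.3 times in library 2 (6.81 to 99.9). TPS21 had 3.13 times (1.497 to 7.16) and 3.48 times (1.79 to 7.55), and TPS10 2.88 times (1.82 to 4.69) and 3.22 times (2.13 to 5.05). These 2 synthases differed between libraries by like amounts. TPS14 had 2.55 times the CPM of library 3 in library 1 (1.97 to 3.34) and 2.39 times in library 2 (1.88 to 3.06). TPS11 differed less, with 1.49 times (1.28 to 1.72) and 1.41 times (1.24 to 1.60). CYP76C1 had 0.997 times (0.787 to 1.26) and 1.13 times (0.935 to 1.38), so its intervals held 1. For TPS24 the ratio of library 1 was 48.5 (8.30 to 1955) to library 3 and 11.9 (5.79 to 27.6) to library 2. On the log2 scale the median of the 7 was 1.39 for library 1 over library 3 and 1.22 for library 2 over library 3, beside medians of 0.00 and -0.01 over all 18654 models. The 7 include TPS24 and CYP76C3, which reached the filter through the libraries where they were high, so these medians are a description.

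**Figure D3:**
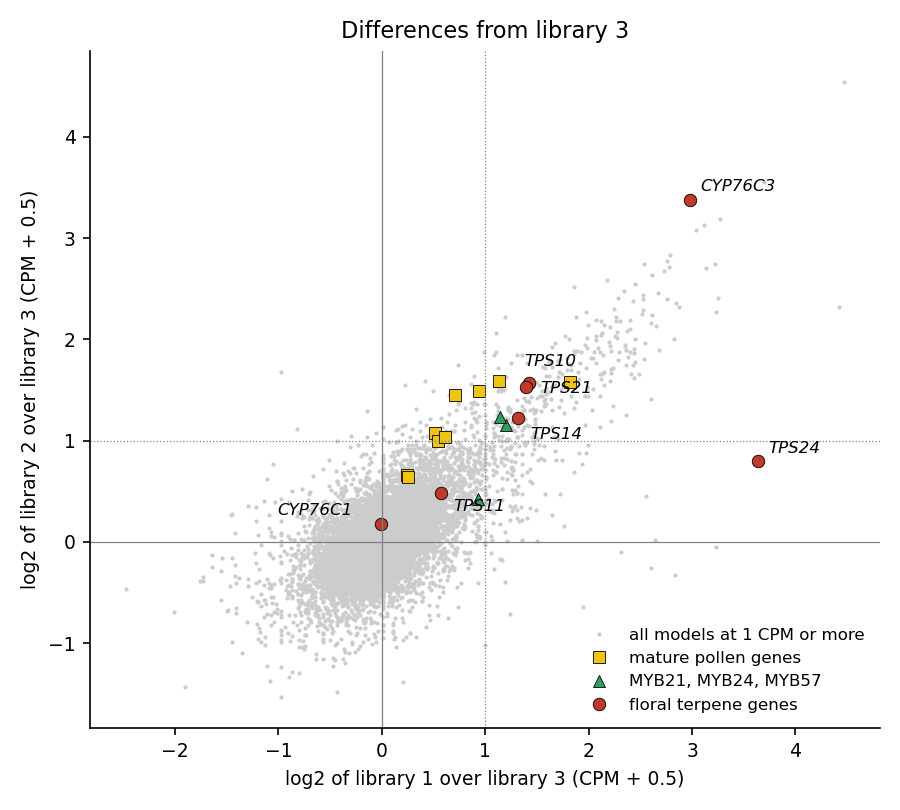
Log2 ratio of CPM plus 0.5 of library 1 over library 3 (horizontal axis) and of library 2 over library 3 (vertical axis) for the 18654 models with a mean of 1 CPM or more. Dotted lines mark a 2-fold difference; TPS10, TPS14, TPS21 and CYP76C3 lie beyond both, TPS24 only beyond the first, and TPS11 and CYP76C1 beyond neither. The axes share library 3.

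To ask whether these genes varied among replicates more than others of like abundance, the spread of each model was tested against the trend fitted over all models. TPS14, TPS10 and TPS11 varied beyond the trend, 3 of the 5 genes tested, against 221 of 17301 models or 1.28%. The edgeR goodness-of-fit test with Benjamini-Hochberg adjustment gave an adjusted p of 5.97e-07 for TPS14, 0.000739 for TPS10 and 0.0469 for TPS11. Their biological coefficients of variation estimate the spread left beyond counting error, and edgeR draws each estimate towards the trend. These coefficients were 0.208, 0.249 and 0.101 beside trend values of 0.0729, 0.107 and 0.0601. TPS21, at a coefficient of 0.244 beside 0.133, did not pass (edgeR adjusted p = 0.0937), nor did CYP76C1, at 0.0717 beside 0.0756 (edgeR adjusted p = 0.9999). The standard filter on low counts left out TPS24 and CYP76C3, which have few counts in library 3, and CYP71B31.

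With models kept at a mean of 1 CPM or more instead, 5 of 7 passed, against 299 of 18654 models or 1.6%. TPS24 (edgeR adjusted p = 1.45e-09) and CYP76C3 (edgeR adjusted p = 1.10e-08) were the genes added, and each reached that filter through the libraries where it was high, so the higher count is no support beyond that of the 5 genes first tested. Leaving out a library ended calls. Without library 3, none of the 6 genes tested passed in edgeR, 0 of them had an unadjusted p below 0.05, and 64 of 18294 models or 0.35% passed. Without library 2, only TPS14 passed of 4 genes tested, and TPS10 had an edgeR adjusted p of 0.0582. TPS11 passed with no library left out and missed the threshold when any library was, at edgeR adjusted p = 0.0812 without library 2, 0.170 without library 1 and 0.9996 without library 3. TPS24 had too few counts to be tested with a library left out.

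**Figure D4:**
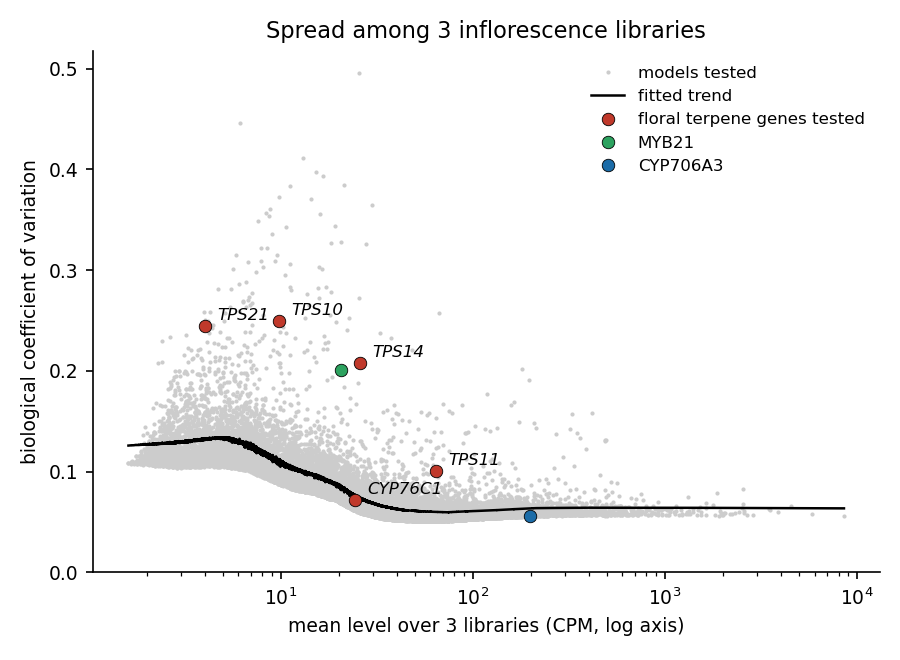
Biological coefficient of variation, drawn towards the trend by edgeR (vertical axis from 0), against mean level in CPM (horizontal log axis) of the 17301 models tested, with the fitted trend. TPS10, TPS14 and TPS21 lie far above the trend, TPS11 above it and CYP76C1 and CYP706A3 on or below it.

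The balance between synthases and oxidases of the linalool branch differed between libraries. TPS10 and TPS14 together stood at 25.2, 24.6 and 9.61 CPM per kilobase in libraries 1, 2 and 3, and CYP76C1 and CYP76C3 together at 14.03, 16.7 and 10.6. The oxidases had 0.557, 0.679 and 1.11 times the level of the linalool synthases on these lengths, so the ratio was highest in library 3. TPS14 was scaled by 1710 coding bases alone, and CYP76C1 by 2237 exon bases, of which 1539 are coding. Such unlike lengths raise the synthases against the oxidases. The ratios can thus be compared between libraries, but do not show which side was higher within 1 library. Between the oxidases, CYP76C1 had 2.81, 2.38 and 42.7 times the level of CYP76C3 per kilobase. Between the sesquiterpene synthases, TPS11 had 13.01, 11.1 and 27.4 times the level of TPS21 per kilobase.

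The 5 synthases took most of the counts of the terpene synthase family. They summed to 131, 119.5 and 68.1 CPM in libraries 1, 2 and 3, while 26 other loci of the family summed to 48.9, 51.7 and 47.4 CPM. The share of the 5 was thus 72.8%, 69.8% and 59.0% of the CPM of all 31 loci. Within the 5, TPS11 held 56.0%, 57.9% and 72.4%. Of the 26 other loci, 8 had no counts and 7 stood at 1 CPM or more. GA2, which makes the gibberellin precursor ent-kaurene, was the highest at 10.6 ± 0.271 CPM per kilobase, close to CYP76C1, and TPS25 followed at 4.18 ± 0.403 CPM per kilobase. None of the 5 other loci tested varied beyond the trend in edgeR at an adjusted p, beside 1.28% of all models tested. Of these 5 other loci, 0 had an unadjusted p below 0.05.

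Genes that supply the substrates were abundant and even across the libraries. By level per kilobase of exon, the 7 genes of the MEP pathway ran from DXS, its first enzyme, at 176 ± 5.26 to MCT at 15.04 ± 1.36 CPM per kilobase, with a median of 72.6. The 8 of the mevalonate pathway ran from HMG1, which makes mevalonate, at 165 ± 13.6 to HMG2 at 16.4 ± 0.708 CPM per kilobase, with a median of 43.9. Among 7 prenyl diphosphate genes FPS1, a farnesyl diphosphate synthase, was the highest at 87.7 ± 2.81 CPM per kilobase. The P450 reductases ATR1 and ATR2, which pass electrons to P450 enzymes, stood at 58.3 ± 4.89 and 50.6 ± 1.998 CPM per kilobase. The median of the 8 terpene genes was 3.89 CPM per kilobase. MCT, FPS1 and ATR1 overlap opposite-strand genes, as GA2 does, so these levels are less certain. In edgeR none of these 24 supply and reductase genes varied beyond the trend, beside 1.28% of all models tested, and 0 had an unadjusted p below 0.05. By 2-fold, 0 were lower in library 3 than in both others, beside 1.52% of models. With shares this low over all models, a count of 0 among 24 genes does not set them apart.

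**Figure D5:**
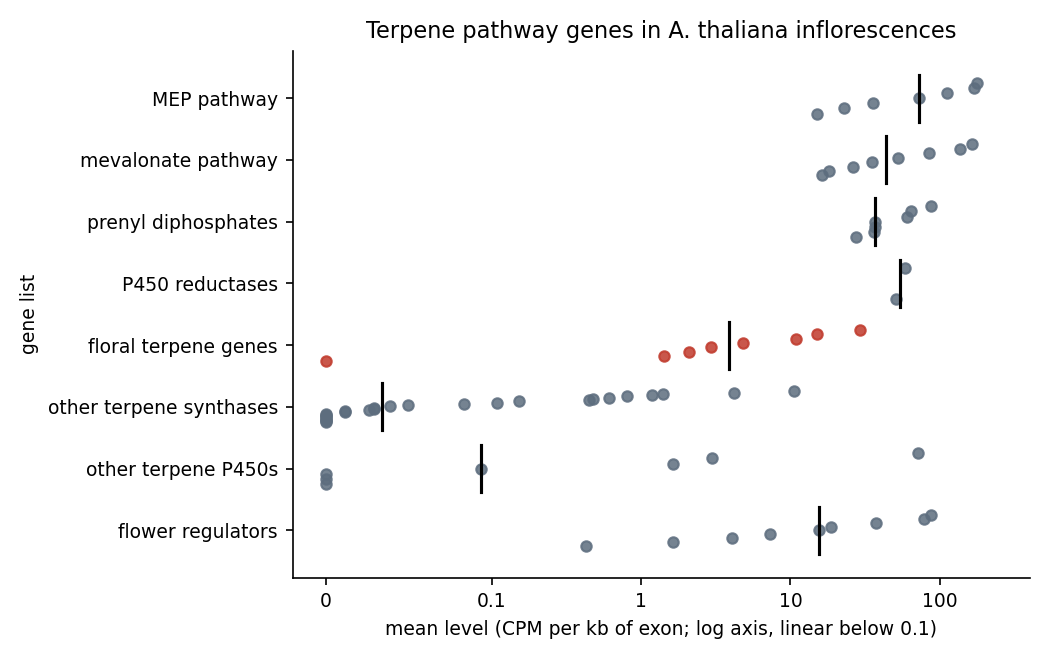
Mean level of each gene over the 3 libraries (horizontal axis, CPM per kilobase of exon, logarithmic above 0.1 and linear below) by gene list, with a bar at each list's median. Substrate supply genes lie at 15.04 CPM per kilobase or above, and the 8 floral terpene genes, in red, between 0 and 29.2.

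Of 7 other P450 genes linked to terpenes, CYP706A3 was the only one at 10 CPM or more. Its enzyme oxidises the sesquiterpenes that TPS11 makes. CYP706A3 (AT5G44620) stood at 199, 196 and 198 CPM in libraries 1, 2 and 3, and did not vary beyond the trend (edgeR adjusted p = 0.9999). Its gene lies 2544 bases from TPS11 on the opposite strand, and it had 2.13, 2.23 and 3.16 times the level of TPS11 per kilobase. The oxidase of this neighbouring pair was thus level in library 3 while the synthase was lower. On the other side of TPS11, 362 bases away, MCM6, a subunit of the replicative helicase, was even at 46.6 ± 1.14 CPM.

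CYP76C1 and CYP76C3 belong to a tandem cluster on chromosome 2 in which neighbours differed widely in level. In order along the chromosome, CYP76C4 had 0 counts, CYP76C1 stood at 10.8 ± 0.817, CYP76C2 at 0.0938 ± 0.0444 and CYP76C3 at 2.96 ± 2.43 CPM per kilobase. All 4 lie on 1 strand with gaps of 217, 644 and 257 bases. CYP76C1 had 83.5% identity with CYP76C2 and 83.2% with CYP76C4 over aligned coding bases. Of the 2188 stretches of 50 bases in its transcript, 9 (0.411%) also occur in CYP76C4, so few exact matches of that length could be shared. Shorter reads and reads aligned with mismatches were not examined. TPS24 is followed on its strand by the cineole synthase loci AT3G25820 and AT3G25830, both with 0 counts. It had 86.2% coding identity with each, and shared 10 of 1947 stretches of 50 bases (0.514%) with them. TPS10, TPS11, TPS14, TPS21 and CYP76C3 shared none with another transcript. The genes next to CYP71B31 on either side, the nearest 366 bases away, also had 0 counts.

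Of 9 regulators of flower maturation, 7 were tested and MYB21 alone varied beyond the trend (edgeR adjusted p = 6.90e-05). MYB21, which with MYB24 and MYB57 promotes petal and stamen growth and acts on floral terpene synthases, stood at 24.6, 26.3 and 10.9 CPM in libraries 1, 2 and 3. It passed also without library 1 or 2, and not without library 3 (edgeR adjusted p = 0.9996). MYB57 stood at 3.19, 3.07 and 1.11 CPM and MYB24 at 5.59, 3.78 and 2.69 CPM, and MYB24 did not pass while MYB57 was below the filter on low counts. With models at a mean of 1 CPM or more, MYB57 did not pass (edgeR adjusted p = 0.969). These 3 MYB genes were lowest in library 3, as were 6 of the 7 terpene genes and 35.1% of all models at 1 CPM or more. Of these 6, TPS24 had only 9 counts in library 2 and 1 in library 3. Each of the 3 MYB genes overlaps a gene of the opposite strand, which makes its counts less certain. MYC2, which is known to bind the promoters of TPS11 and TPS21 and also overlaps an opposite-strand gene, was at 57.95, 67.8 and 58.4 CPM. ARF6 and ARF8, which act upstream of jasmonate synthesis in flowers, stood at 334 ± 11.3 and 273 ± 5.08 CPM. Of 11 jasmonate synthesis genes, 7 reached 10 CPM. In edgeR none of the 9 tested varied beyond the trend, beside 1.28% of all models tested, and 0 had an unadjusted p below 0.05.

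Markers of mature pollen differed between the libraries as well. All 9 listed were below both others in library 3, as were 6 of the 7 terpene genes and 35.1% of all models at 1 CPM or more. By 2-fold or more, 2 of the 9 pollen genes were, as were 4 of the 7 terpene genes and 1.52% of models. The summed level of the 9 pollen genes was 635, 881 and 420 CPM in libraries 1, 2 and 3, none was at 0, and 6 of 9 varied beyond the trend in edgeR (2 of 9 without library 3). The sum and 8 of the 9 genes were highest in library 2, and ANX2 was highest in library 1. The 8 tapetum genes summed to 380, 375 and 417 CPM and the 7 meiosis genes to 38.5, 28.3 and 32.7 CPM. The part of pollen or of flower stage in the lower terpene genes of library 3 was not tested. Beside the high TPS24 of library 1, the defence gene PR2 stood at 7.18, 0.286 and 0.316 CPM in libraries 1, 2 and 3 and PR1 at 2.71 CPM in library 1 with 0 counts in the others. The other 2 genes of that list of 4 were not higher in library 1, SAG12 with 0 counts and PDF1.2a with 1 count, in library 2. Whether any of this bears on TPS24 was not tested.

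Over the 3 libraries TPS10 and TPS21 had the most alike pattern of any pair of the 7 genes, with a distance of 0.0323 between their log2 levels centred on their own means. TPS14 lay 0.225 from TPS21 and 0.255 from TPS10, and CYP76C1 lay 0.986 from TPS14. Among the 13158 other models at a mean of 10 CPM or more, those nearest to TPS14 were AT4G39110 (distance 0.0590), a receptor-like kinase gene, AT5G47000 (0.0597), a peroxidase gene, and UGT85A3 (0.108), a glucosyltransferase gene. Only 13 of these models, 0.0988%, lay within a distance of 0.2 of TPS14. TPS11 had 384 models within 0.2 (2.92%), the nearest being AT5G10740, AT2G20650 and AT5G58480. CYP76C1 had 6126 (46.6%), the nearest being PFA-DSP2, HB23 and TH9. With 3 libraries these distances are a description.

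The 200 bases before the annotated start were searched on both strands for 4 motifs, the G-box CACGTG, the E-box CANNTG, of which the G-box is 1 form, the AC element ACCTAAC and the CArG box by its published consensus. E-boxes and G-boxes are bound by MYC factors, AC elements by R2R3-MYB factors and CArG boxes by MADS-box factors such as SEP3. None of the 8 promoters held a G-box or a CArG box in this window, which 5.73% and 2.15% of 26689 promoters held. AC elements occurred in TPS10, CYP76C1 and CYP71B31 (2.05% of promoters), and E-boxes in TPS10, TPS14 and CYP76C1 (47.3% of promoters). For TPS14, whose counted model covers coding bases only, part of the window may be transcribed. The promoters of TPS10 and CYP76C3, both low in library 3, and of the even CYP76C1 are shown to set these groups side by side, from TAIR10.1 in the direction of transcription, with matches in capitals.
TPS10 (chr2:10294086-10294285, plus strand): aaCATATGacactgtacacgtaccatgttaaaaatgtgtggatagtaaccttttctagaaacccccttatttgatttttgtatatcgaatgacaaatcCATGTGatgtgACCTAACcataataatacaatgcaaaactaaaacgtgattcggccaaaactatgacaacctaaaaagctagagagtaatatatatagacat
CYP76C3 (chr2:18784531-18784730, minus strand): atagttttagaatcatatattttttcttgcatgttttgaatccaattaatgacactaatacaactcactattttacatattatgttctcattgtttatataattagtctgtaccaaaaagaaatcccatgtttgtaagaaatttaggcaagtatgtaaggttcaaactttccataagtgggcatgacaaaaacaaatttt
CYP76C1 (chr2:18778677-18778876, minus strand): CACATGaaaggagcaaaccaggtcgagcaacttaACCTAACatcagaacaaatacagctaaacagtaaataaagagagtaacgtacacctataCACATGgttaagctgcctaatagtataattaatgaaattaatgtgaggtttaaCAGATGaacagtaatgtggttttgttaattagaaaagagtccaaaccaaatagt
In TPS10 the E-boxes begin 198 and 102 bases before the start and the AC element 91 bases before it. In CYP76C1 the E-boxes begin at 200, 107 and 54 bases and the AC element at 166 bases. The window of CYP76C3 held no match. A match is a run of letters and not a site shown to be bound, and both an even gene and one that was low in library 3 carried the AC element.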

How the data were processed

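The authors deposited raw counts per gene model for each A. thaliana library, in whole numbers whose totals differ between libraries. The labels' protocols name a plant spin-column kit with DNA digestion and directional libraries, and the submitters' processing notes name TAIR10. Neither the aligner, the counting tool nor the use of strand is given in the sources used here. The TAIR10.1 annotation holds the loci of 26690 of the 27176 models and gave positions, lengths and sequences. It holds no symbol for AT5G44630 and AT3G25810, whose names came with the list of loci, and its symbols TPS10 and TPS11 are also borne by trehalose-phosphate synthases, so genes were matched by locus.

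CPM used raw totals, intervals were exact (Poisson for levels, conditional binomial for ratios, 95%), and a count of 0 was read as up to 3 counts. Spread was tested with edgeR 4.0.16 in R 4.3.3: filterByExpr, TMM scaling, an intercept alone, and goodness of fit to the trended dispersion with Benjamini-Hochberg adjustment at 0.05. On simulated counts for 17129 models it called 58.2% of 67 models changed 2-fold in 1 library, all 65 changed 4-fold and 2 of 16931 unchanged ones. Each simulated model had the spread of the trend itself, and changed models were raised, not lowered, in 1 library. These rates may thus not hold for the real models. Alternatives included DESeq2 1.42.0 size factors, other scalings, filters and dispersions, pseudocounts of 0.1 and 1 CPM, and leaving out each library. Other steps ran in Python 3.11.15 (Biopython 1.88, pandas 2.3.3, scipy 1.17.1, numpy 2.4.6, matplotlib 3.10.9).

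The genes described and the 14 gene lists (77 pathway and 40 marker genes) were chosen with earlier results of these data known. The genes named are the 8, the 2 highest and 2 lowest of a list or all of a short list, the 2 neighbours on either side, and the 3 models most alike to a gene with a mean of 10 CPM or more. The PR1 and PR2 values and the choice of list members beyond the highest and lowest were made with values in view. The A. lyrata counts were not used by gene. The motif sequence of TPS24 is not reported here.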

Additional observations from a re-analysis of the deposited data

How the results depend on the processing

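None of the alternatives run reversed a direction. The number of terpene genes with spread beyond the trend was 3 of 5 and became 5 of 7 both with no filter other than 1 count and with a mean of 1 CPM or more. The added TPS24 and CYP76C3 pass such filters through the libraries where they are high, so this is no support. Leaving out 1 library gave 0 to 2 genes and 64 to 165 models, against 221 models with all 3. With a mean of 10 CPM or more, 3 terpene genes were left, and 1 (TPS14) was 2-fold or more higher in library 1 than in library 3, 1 higher in library 2 than in library 3 and 1 lower in library 3 than in both others, against 0.456%, 0.502% and 0.365% of models. That filter left out TPS10, TPS21, TPS24 and CYP76C3. The shares of all models were lower too, beside 2.29%, 1.99% and 1.52% at a mean of 1 CPM or more. TPS11 missed the threshold with upper quartile scaling (edgeR adjusted p = 0.0536), raw totals (0.0556) and a common dispersion (0.113), and over its alternatives ranged from 0.0412 to 0.9996. TPS21 passed with a common dispersion (edgeR adjusted p = 0.0151), and the cause was not tested. For TPS14 the range was 2.90e-07 to 0.9996 and for TPS10 2.13e-05 to 0.9996, the highest in each case without library 3. The count of genes with spread beyond the trend was 2 of 5 with upper quartile scaling and with raw totals. With a pseudocount of 0.1 CPM, TPS24 was added to the 4 genes lower in library 3. This made 5 of 7, against 2.02% of models. The addition rests on 9 counts of TPS24 in library 2 and 1 in library 3. Its ratio of CPM in library 2 to library 3 was 4.07, with a counting interval of 0.564 to 178, which holds 1.

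No paired analysis was possible because the 3 A. thaliana libraries form 1 group and the A. lyrata libraries with the same numbers share no identifiers with them. Depth limits TPS24, CYP76C3 and TPS21 in library 3, with 1, 3 and 10 counts, and the absence of CYP71B31 reads only to 0.113 CPM.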

Other observations

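Other genes of the terpene synthase family were also detected in these inflorescences. TPS04, the geranyllinalool synthase, stood at 3.03, 2.50 and 1.58 CPM in libraries 1, 2 and 3, and CYP82G1, which acts on its product, at 4.95, 6.36 and 5.69 CPM. The ocimene synthase gene TPS03 stood at 1.44, 2.29 and 0.316 CPM, from 9, 32 and 2 counts. On the CPM plus 0.5 scale it was lower in library 3 by 2-fold or more than in both others. It was the only one of the 7 other loci at 1 CPM or more with that pattern, which 1.52% of models had. TPS03 reached that mean through libraries 1 and 2, so its place is tied to the filter and is a description. It did not vary beyond the trend (edgeR adjusted p = 0.339 with models at a mean of 1 CPM or more). GA1, which acts before GA2 in gibberellin synthesis, stood at 1.76, 1.36 and 0.474 CPM and GA2 at 27.3, 28.7 and 28.3 CPM.

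Among the P450 genes of the CYP76C subfamily outside the chromosome 2 cluster, CYP76C6 stood at 2.39, 2.07 and 3.48 CPM, from 15, 29 and 22 counts. Its value was highest in library 3, but its spread did not pass the test (edgeR adjusted p = 0.9999).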
